A study of Mus musculus with 3 samples.

Results

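The 38 genes described here are the protein-coding members of the 4 mouse Hox clusters. They were chosen by symbol, as genes named Hox followed by a cluster letter from a to d and a number, out of 21631 protein-coding genes on the chromosomes that the data cover. Of these, 10 lie in the Hoxa cluster, 10 in Hoxb, 9 in Hoxc and 9 in Hoxd. The measurement is accessible chromatin in nuclei of whole brain from C57BL6 mice, by single-cell combinatorial indexed ATAC-seq, in which a transposase cuts open DNA and leaves barcoded adapters there. There are 3 libraries, prepared on a nanowell chip and labelled sciATACv3, sciATACv2 and sciATACv1 (v3, v2 and v1 hereafter), with 1 library per version. All share strain, tissue and nuclei isolation in the labels; what changed between versions, how many animals and nuclei were used, and their sex and age are not given in these sources.

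Hox genes encode homeodomain transcription factors that give cells along the head-to-tail axis their position. Within a cluster the genes stand in the order in which they are used along the body, so that low-numbered paralog groups act in the hindbrain and neck and high-numbered groups in the lower spine, limbs and tail. In the nervous system they are known for setting the identity of hindbrain segments and spinal motor neurons, while the forebrain is laid out largely without them. During development silent parts of the clusters carry Polycomb chromatin.

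Each library is a list of peaks, that is, intervals called as accessible, with a position and no height or read count. The v3, v2 and v1 lists held 512023, 850991 and 622754 peaks and covered 19.06%, 26.02% and 17.65% of the chromosomes. Read depth is unknown. With 1 library per version there is no replicate, so no difference between versions was tested, and every interval given is an exact 95% interval for counting error alone. In whole tissue, fewer nuclei of a type that opens a site and less opening per nucleus cannot be told apart. The tissue label was checked against 16 markers of neurons, astrocytes, oligodendrocytes, microglia and endothelium, and all 16 had a peak at an end of the gene (at most 1 kb away) in v3, in v2 and in v1, as did 80.6%, 84.8% and 81% of all protein-coding genes, so the check is a weak one. In the Hox genes a peak is a sign of an open site and not of transcription.

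Promoter sequences were in the RefSeq set for 22 of the 38 genes, as 24 start sites on GRCm38.p6, the assembly of the mm10 build. Those of 5 genes are shown because they span the outcomes: Hoxa13 and Hoxd13 had a peak in all 3 libraries, Hoxb1 had a peak in v2 alone, and Hoxb8 and Hoxd4 had a peak in none. Each is the 250 bases before the start, 5′ to 3′ on the strand of the gene, with every CG in capitals. They lie at chr6:52260881-52261130 (minus strand, Hoxa13), chr2:74667975-74668224 (plus, Hoxd13), chr11:96365508-96365757 (plus, Hoxb1), chr11:96281655-96281904 (plus, Hoxb8) and chr2:74721728-74721977 (plus, Hoxd4).
Hoxa13: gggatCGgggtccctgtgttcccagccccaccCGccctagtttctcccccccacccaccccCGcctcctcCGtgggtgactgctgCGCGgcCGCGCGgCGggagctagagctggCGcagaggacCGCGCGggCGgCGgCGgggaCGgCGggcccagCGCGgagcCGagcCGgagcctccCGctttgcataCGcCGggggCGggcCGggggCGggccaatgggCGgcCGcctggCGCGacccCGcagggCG
Hoxd13: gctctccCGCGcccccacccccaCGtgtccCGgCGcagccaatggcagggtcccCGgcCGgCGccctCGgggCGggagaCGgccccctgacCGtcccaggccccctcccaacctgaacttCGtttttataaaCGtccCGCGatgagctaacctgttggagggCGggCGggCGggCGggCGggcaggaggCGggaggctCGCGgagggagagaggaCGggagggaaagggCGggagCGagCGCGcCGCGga
Hoxb1: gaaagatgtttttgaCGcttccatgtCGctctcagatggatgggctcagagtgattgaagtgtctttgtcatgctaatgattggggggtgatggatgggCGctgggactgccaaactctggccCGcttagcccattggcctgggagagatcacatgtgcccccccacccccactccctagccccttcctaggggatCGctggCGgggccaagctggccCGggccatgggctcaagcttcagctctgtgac
Hoxb8: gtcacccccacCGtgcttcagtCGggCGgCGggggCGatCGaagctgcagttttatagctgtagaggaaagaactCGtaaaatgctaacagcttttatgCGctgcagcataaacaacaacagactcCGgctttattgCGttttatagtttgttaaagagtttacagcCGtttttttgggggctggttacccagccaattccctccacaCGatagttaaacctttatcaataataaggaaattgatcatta
Hoxd4: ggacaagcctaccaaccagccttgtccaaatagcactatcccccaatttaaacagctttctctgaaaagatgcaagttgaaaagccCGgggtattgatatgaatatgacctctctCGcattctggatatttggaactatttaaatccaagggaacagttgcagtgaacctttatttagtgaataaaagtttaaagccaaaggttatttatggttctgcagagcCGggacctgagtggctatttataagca

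The Hoxa13 and Hoxd13 promoters held 35 and 31 CG, against 7 in Hoxb1, 12 in Hoxb8 and 3 in Hoxd4. The Hoxa13 and Hoxd13 promoters had the most CG of the 24, and other sites did not follow this pairing: Hoxa2 and Hoxd8, with a peak in all 3 libraries, had 6 CG each, and Hoxa6, with a peak in v2 alone, had 24. Over the 24 Hox start sites the median was 12.5 CG, with a range of 2 to 35, against a median of 6 over all 32619 RefSeq promoters. A peak touched the 300 bases around the start, 250 before and 50 after, at 18 of 24 Hox start sites in v3, 19 in v2 and 17 in v1. Over all promoters the shares were 65.3% in v3, 72.6% in v2 and 64.7% in v1, and the Hox counts lay slightly above these shares. In v3 the Hox promoters with a peak had a median of 13.5 CG and those without had 7.5, against 12 and 2 over all promoters. A peak was present in all 3 libraries at 14 of the 24 start sites, beside 60.2% of all promoters. Most of the 24 start sites are in Hoxa and Hoxd. Hoxb has only those of Hoxb1, Hoxb4 and Hoxb8, and Hoxc only that of Hoxc4. The promoter values here and the motif counts below therefore describe mainly Hoxa and Hoxd.

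The 3 start sites without a peak in any library belonged to Hoxa9, Hoxb8 and Hoxd4. From the Hoxb8 start the nearest peak was 1128 bp away in v3, 607 bp in v2 and 1119 bp in v1. From the Hoxd4 start the distances were 895, 540 and 3051 bp in v3, v2 and v1. Both genes thus had peaks nearby that missed the start itself. For Hoxb1, which fixes the identity of a hindbrain segment, the peak in v2 lay over the start and the nearest peak was 11031 bp away in v3 and 10853 bp in v1.

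Short motifs were counted in the 250 bases before the start, on both strands, with no correction for overlap between motifs. The CCAAT box was found in 14 of 24 Hox promoters (58.3%), against 34% of all promoters. The GC box GGGCGG was found in 10 (41.7%), against 33%. TATAAA, the letters of a TATA box, was found on either strand and at any position in 4 (16.7%), against 12.4%. Those 4 were in Hoxa10, Hoxb8, Hoxd4 and Hoxd13. The homeodomain core TAATTA was found in 2 (8.33%, against 4.8%), both at Hoxd11, and TGATTNAT, a letter string bound by Hox proteins with Pbx, in 2 (8.33%, against 2.84%), at Hoxa2 and Hoxd11. A match describes letters in the window and not a bound site. Of the printed sequences, those of Hoxb8 and Hoxd4 matched TATAAA only on the opposite strand, where the print reads TTTATA, and had no peak. That of Hoxd13 held TATAAA on the strand of the gene and had a peak in all 3 libraries.

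The clusters also carry microRNA genes, which are shown because members of a family in different clusters share a seed, the bases 2 to 8 that pair with targets. The 5′ arm products of the miR-10 and miR-196 families, from RefSeq, are given 5′ to 3′ with the seed in capitals.
mmu-miR-10a-5p: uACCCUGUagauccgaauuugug
mmu-miR-10b-5p: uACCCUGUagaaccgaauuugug
mmu-miR-196a-5p: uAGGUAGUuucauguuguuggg
mmu-miR-196b-5p: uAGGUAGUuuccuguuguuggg

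The seed ACCCUGU is shared by miR-10a, in the Hoxb cluster beside Hoxb4, and miR-10b, in the Hoxd cluster beside Hoxd4. The bases coding for miR-10b-5p, chr2:74726074-74726096, lay in a peak in v3, v2 and v1. Those for miR-10a-5p, chr11:96317186-96317208, lay in a peak in v3 alone, with the nearest peak 489 bp away in v2 and 734 bp in v1. The seed AGGUAGU is shared by miR-196a and miR-196b. The bases for miR-196b-5p, chr6:52230129-52230150 in the Hoxa cluster, lay in a peak in all 3 libraries. For miR-196a-5p, the Hoxc copy at chr15:102973365-102973386 lay in a peak in v2 alone, 150 bp away in v3 and 2199 bp in v1. The Hoxb copy at chr11:96265187-96265208 lay in a peak in no library, with the nearest 109, 80 and 480 bp away in v3, v2 and v1. Copies with the same seed were therefore not open alike, and single peaks decided each of these calls.

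Taken from the lowest gene start to the highest gene end plus 5 kb on each side, the clusters are chr6:52157417-52265880 (Hoxa), chr11:96189316-96373254 (Hoxb), chr15:102916131-103041856 (Hoxc) and chr2:74663225-74770142 (Hoxd). Together they held 189 peaks in v3 (interval 163 to 218), 241 in v2 (212 to 273) and 180 in v1 (155 to 208). Per length this was 1.81, 1.39 and 1.41 times the density of the whole list in v3, v2 and v1. Peaks covered 35% of the 525 kb in v3, 38.5% in v2 and 26.3% in v1. The median peak in the clusters was 726 bp wide in v3, 614 bp in v2 and 500 bp in v1, against 726, 500 and 500 bp over each whole list. Taken as a whole, the clusters were thus denser in peaks than their libraries in all 3 lists. In v1 more than 50% of the peaks, in the clusters and in the list, had the minimum width of 500 bp, so the median there cannot show a difference in width. By cluster, the density in v3, v2 and v1 was 2.27, 1.84 and 2.25 times that of the list in Hoxa, 2.04, 1.59 and 1.25 times in Hoxc, and 1.92, 1.38 and 1.85 times in Hoxd. In Hoxb it was 1.31, 0.985 and 0.785 times, so Hoxb was not denser than the list in v2 or v1. The interval for Hoxb in v3, 0.966 to 1.74, also included 1. The excess of Hoxc in v1 likewise lay within counting error, on 38 peaks (interval 26.9 to 52.2).

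**Figure D1:**
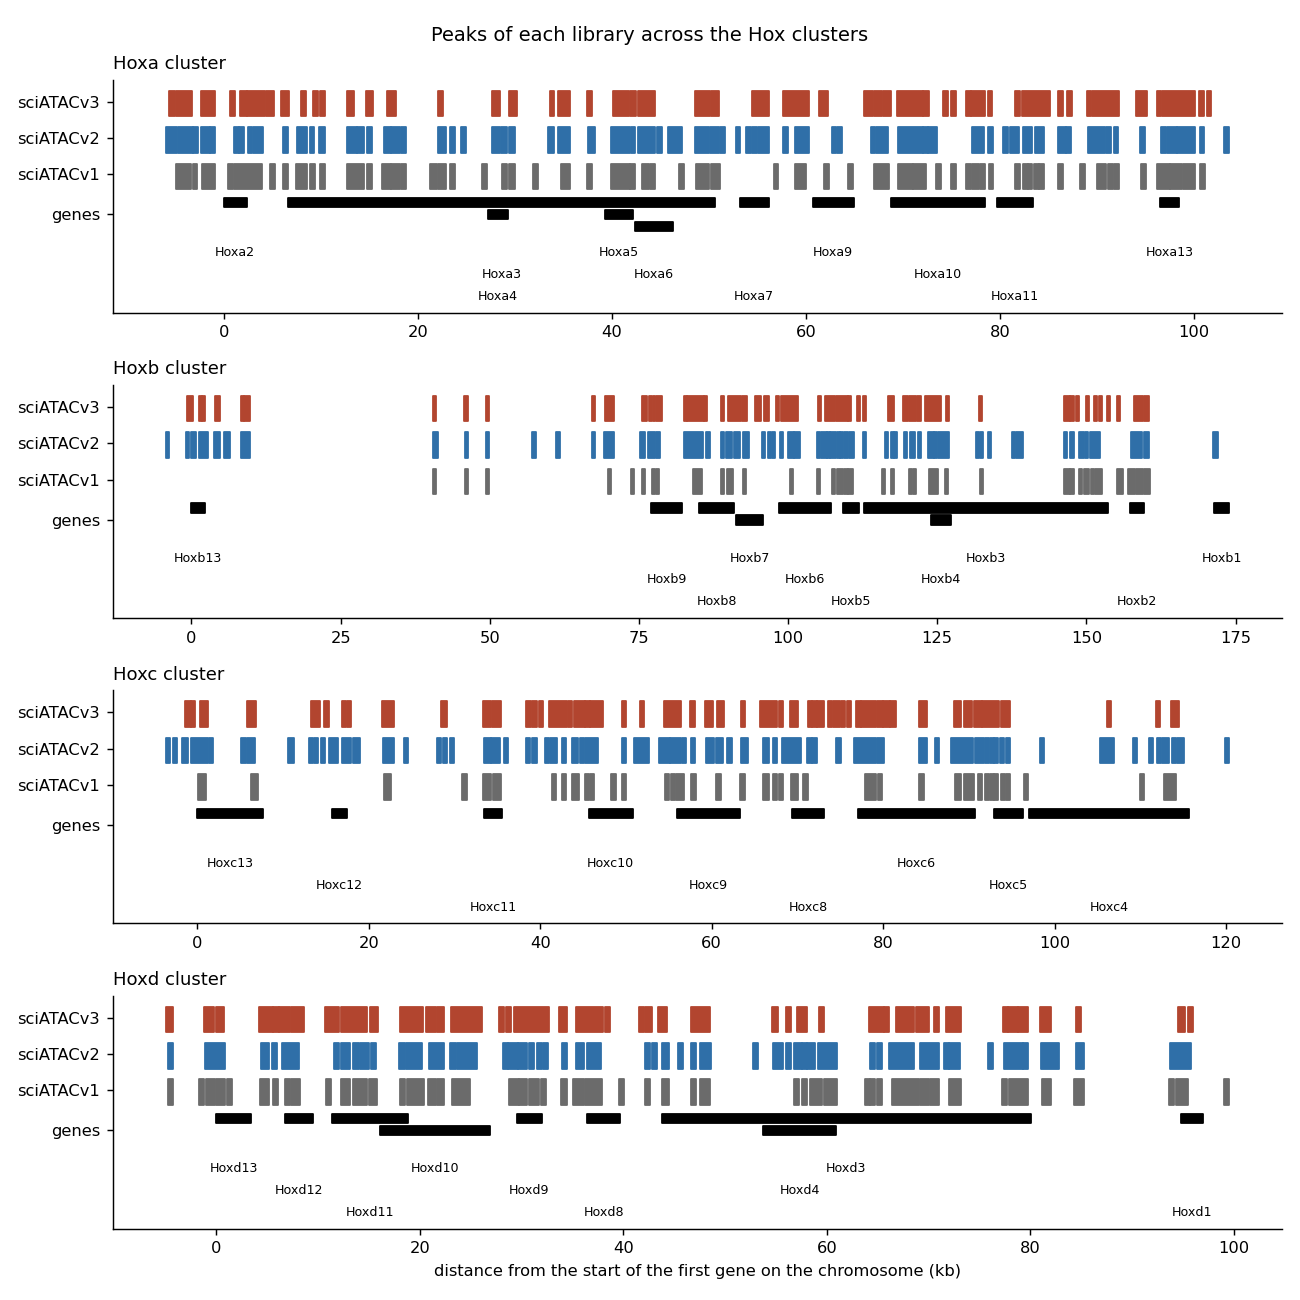
Peaks of v3 (red), v2 (blue) and v1 (grey) across the 4 Hox clusters, with gene spans in black; the axis is the distance in kb from the start of the gene with the lowest position. Hoxa and Hoxd carry peaks along most of their length in each library, while Hoxb has a nearly empty stretch between Hoxb13 and Hoxb9, and v1 has no peak around Hoxb13.

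The clusters differed among themselves. Hoxa held 49 peaks in v3, 66 in v2 and 59 in v1, covering 47%, 49.5% and 43.2% of its 108 kb. Hoxd held 41, 49 and 48 peaks in v3, v2 and v1, covering 42.5%, 42.6% and 38.8% of its 107 kb. Of 25692 bins of 100 kb across the genome, 5.77% in v3, 10.3% in v2 and 3.99% in v1 were covered at least as much as Hoxa. For Hoxd the shares were 9.8%, 20.8% and 8.15%, so these clusters were among the more covered stretches of the genome, which has a median bin cover of 15.4% in v3, 24.1% in v2 and 14.8% in v1.

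Hoxc held 51 peaks in v3, 66 in v2 and 38 in v1, covering 34.7%, 42.2% and 19.4% of its 126 kb. Hoxb held 48, 60 and 35 peaks in v3, v2 and v1, covering 23.8%, 27.1% and 13.7% of its 184 kb. Of the genome's bins, 19.5%, 21.4% and 39.4% were covered at least as much as Hoxc in v3, v2 and v1, and 36%, 45.1% and 53.5% at least as much as Hoxb. The low cover of Hoxb rested in part on the 64.7 kb between Hoxb13 and Hoxb9, which hold no other gene of the set. Peaks covered 7.85% of that interval in v3, 10.5% in v2 and 3.09% in v1. The part from Hoxb9 to Hoxb1, 107 kb long, was covered to 33.6%, 35.4% and 21.6% in v3, v2 and v1.

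**Figure D2:**
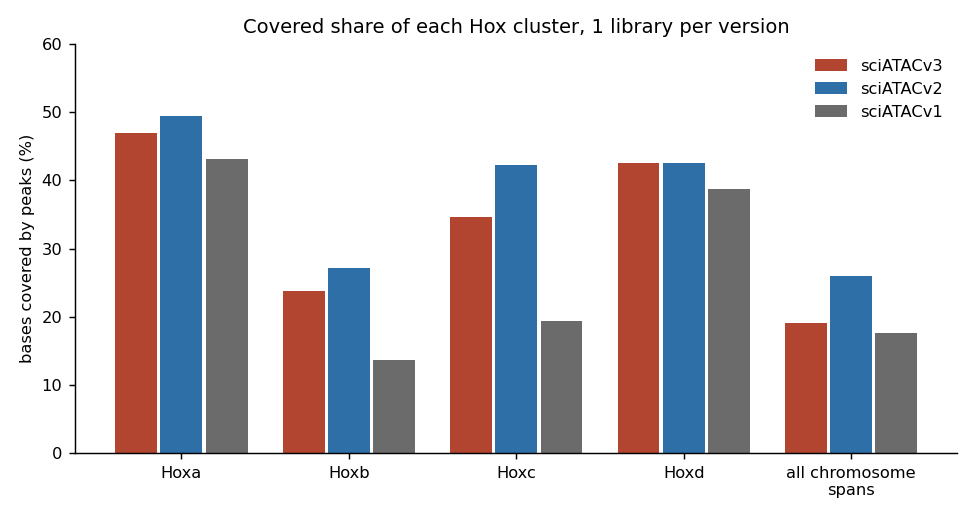
Share of the bases of each Hox cluster covered by peaks, in percent, in v3, v2 and v1, beside the same share of all chromosomes; 1 library per bar, so there is no error bar. Hoxa and Hoxd stand between 38.8% and 49.5% in every library, while Hoxb and Hoxc are lowest in v1, at 13.7% and 19.4%.

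The longest stretch without a peak measured 5 kb in v3, 3.7 kb in v2 and 5.57 kb in v1 in Hoxa. In Hoxb it measured 30.8 kb in v3, 30.7 kb in v2 and 45.5 kb in v1, where it included Hoxb13. In Hoxc it measured 11.3, 6.51 and 14.6 kb in v3, v2 and v1, and in v1 it included Hoxc12. In Hoxd it measured 9.52, 8.44 and 8.37 kb and lay before Hoxd1 in each library. The longest gaps were therefore beside or over genes at an end of a cluster in Hoxb and Hoxd.

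The widest peaks in the clusters lay at or beside genes. In v3 a peak of 3452 bp covered Hoxd9 at chr2:74697439-74700890 and a peak of 3402 bp covered most of Hoxa13 at chr6:52259080-52262481. The widest in v2, 3117 bp, lay at chr11:96276869-96279985, beside Hoxb9 and over an end of Hoxb8. The widest in v1, 2816 bp, lay at chr6:52163535-52166350 over the start of Hoxa2. Peaks over 1500 bp made up 16.9% of those in the clusters in v3, 11.6% in v2 and 7.22% in v1, against 16.4%, 7.87% and 5.67% of the whole lists. In Hoxc, v1 had none over 1500 bp.

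Cover changed sharply at some cluster edges. Between the outermost Hox genes, peaks covered 45.9% of Hoxa in v3, 48.3% in v2 and 42.2% in v1, against 11.5%, 10.3% and 8.92% of the 200 kb on both sides. Hoxb was covered to 24.7%, 28.1% and 14.4% in v3, v2 and v1, against 14.2%, 12.4% and 8.95% of its flanks. Hoxc was covered to 36.6%, 43.4% and 21.1%, against 24.1%, 30.9% and 19.1% outside, so in v1 the cluster and its surroundings were nearly alike. Hoxd was covered to 45%, 45.3% and 40.3%, against 25.1%, 23.2% and 16.1%. From 20 to 80 kb before Hoxd the 20-kb bins were covered to at most 3.74%, while bins further out on that side reached 58.3% in v3.

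**Figure D3:**
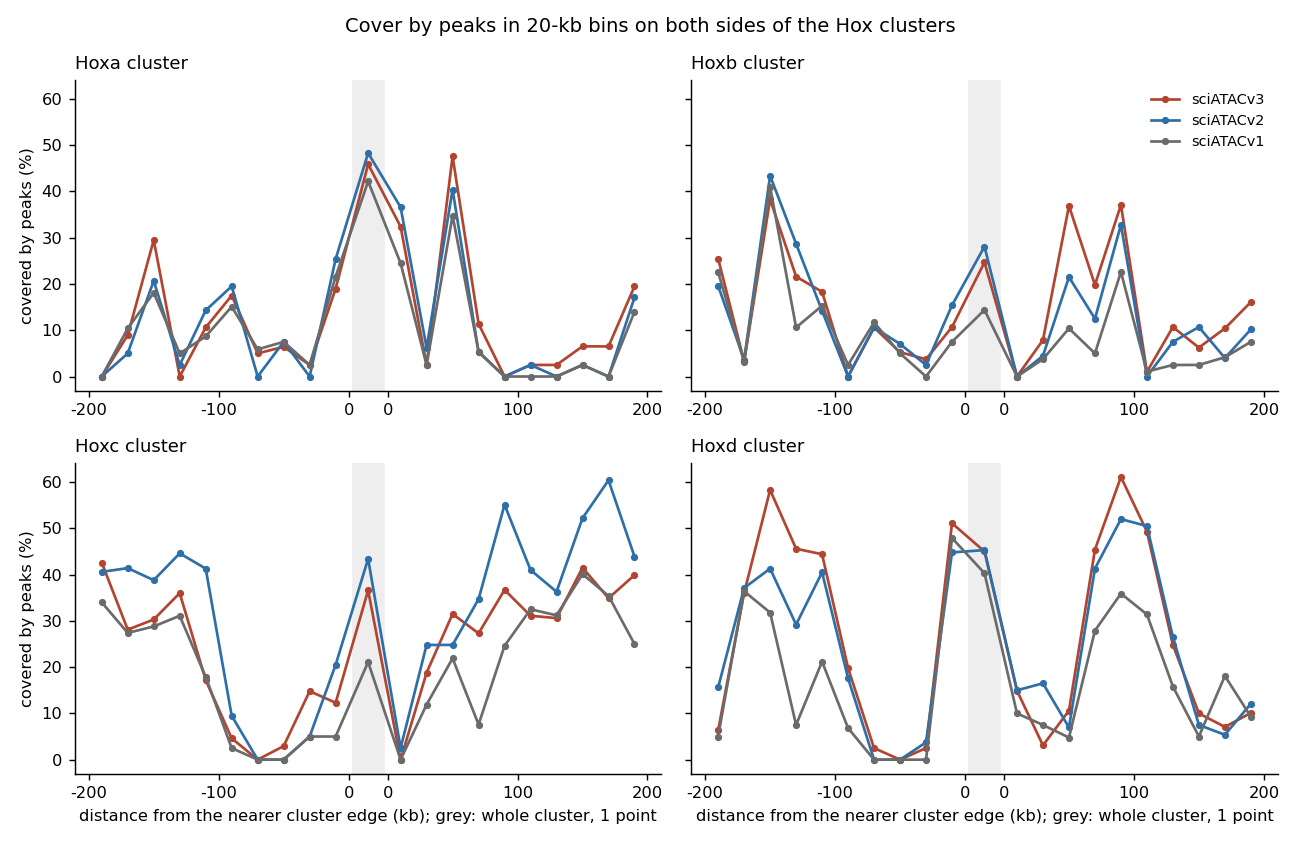
Cover by peaks, in percent, in 20-kb bins up to 200 kb on both sides of each Hox cluster, with the cluster itself as 1 point on grey. Hoxa stands above all bins around it in v2 and v1. In v3 a bin centred 50 kb after it reaches 47.6%, against 45.9% for the cluster. Hoxb, Hoxc and Hoxd have flanking bins at least as covered as the cluster itself in each library.

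For single genes, a window of the gene span plus 5 kb on each side was used, 11.8 to 54 kb long. A peak lay in the window of 37 of 38 Hox genes in v3, 38 in v2 and 36 in v1, against 87.2%, 90.2% and 88.8% of all protein-coding genes. An end of the gene had a peak at most 1 kb away in 36, 38 and 35 Hox genes in v3, v2 and v1, against 80.6%, 84.8% and 81% of all. Both ends had a peak in 30 Hox genes (78.9%) in v3, 29 (76.3%) in v2 and 23 (60.5%) in v1, against 52.5%, 66% and 51.9%. All but a few Hox genes were thus marked in each list.

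The median Hox gene had 4.66 peaks per 10 kb in v3, 5.83 in v2 and 4.51 in v1, against 2.66, 4.26 and 2.97 over all protein-coding genes. The median share of a window covered was 47.8% in v3, 46.7% in v2 and 30.8% in v1, against 27.8%, 35.8% and 23.5%. Among the 13903 protein-coding genes with windows of the same range of lengths, the median cover was 28.5%, 35.8% and 23.9%; within that range their windows were longer, with a median of 23.1 kb against 13.7 kb for the Hox genes. The genes lie close together, and 53% of the peaks in their windows in v3, 50.6% in v2 and 54.9% in v1 fell in more than 1 window. Values of neighbouring genes are therefore not separate observations.

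**Figure D4:**
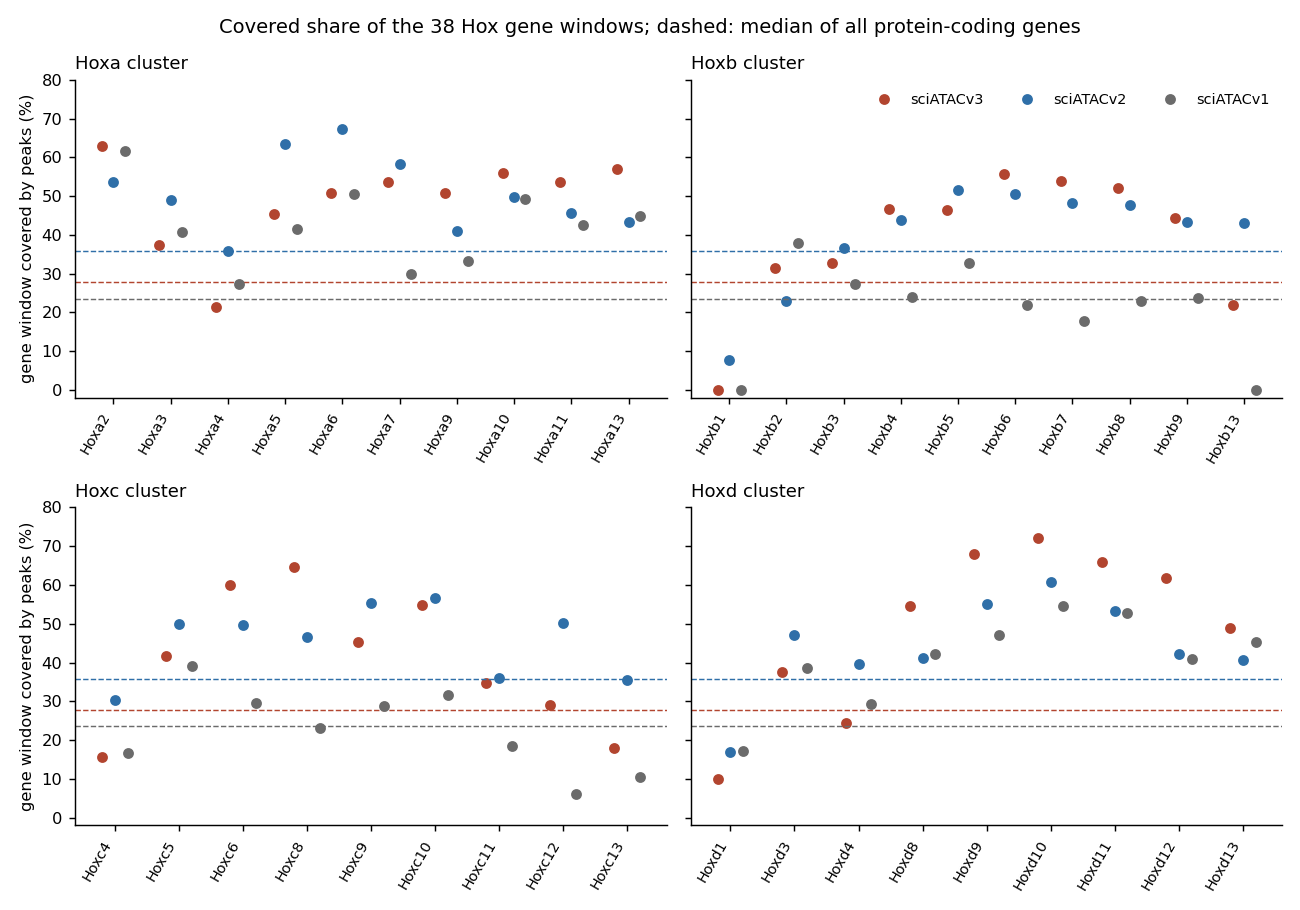
Share of each Hox gene window (gene span plus 5 kb on each side) covered by peaks, in percent, in v3, v2 and v1; dashed lines give the median of all protein-coding genes in the library of that colour. Most genes lie above their line, while Hoxb1, Hoxd1, Hoxc4 and Hoxc13 lie below it in every library.

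By paralog group, the 11 genes of groups 1 to 4 were covered to a median of 31.4% in v3, 36.5% in v2 and 27.4% in v1. The 11 genes of groups 5 to 8 were covered to 53.6%, 50% and 30% in v3, v2 and v1. The 16 genes of groups 9 to 13 were covered to 52.1%, 44.5% and 37%. Groups 1 to 4, the ones used in the hindbrain, thus had the lowest median cover in each of the 3 libraries, although their single genes ranged from 0% to 63% in v3.

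Among groups 1 to 4 the long genes of group 3 had most peaks. Hoxa3, needed for the thymus and parathyroid, had 22 peaks in v3, 34 in v2 and 27 in v1 over a window of 54 kb. Hoxb3 had 21, 26 and 20 peaks in v3, v2 and v1, and Hoxd3, which shapes the upper neck vertebrae, had 19, 24 and 20. The spans of these genes in RefSeq reach across shorter neighbours such as Hoxa4, Hoxb4 and Hoxd4, so peaks of those genes are counted in them as well. Within the Hoxd3 span lay the widest of the regions in the Hox clusters obtained when the 3 lists were merged, 5375 bp at chr2:74733864-74739238, of which v3, v2 and v1 covered 3938, 4284 and 4351 bp.

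Hoxa2, which sets the identity of the second pharyngeal arch and of anterior hindbrain segments, was covered to 63% in v3, 53.7% in v2 and 61.5% in v1, with 8, 10 and 7 peaks. It was the most covered gene of groups 1 to 4 in all 3 libraries. Hoxb1 stood at the other end, with 0 peaks in its window in v3, 1 in v2 and 0 in v1. Hoxb2, active in the same hindbrain segment as Hoxb1, had 5 peaks in v3, 2 in v2 and 5 in v1, with cover of 31.4%, 23% and 37.9%. Hoxd1, known in mice for the wiring of pain-sensing neurons, had 2, 1 and 3 peaks in v3, v2 and v1, with cover of 9.91%, 16.9% and 17.3%. Hoxb1 and Hoxd1, both of group 1, were the genes with the fewest peaks in their clusters. Hoxc4 had 5 peaks in v3, 14 in v2 and 8 in v1, with cover of 15.6%, 30.4% and 16.6%.

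Groups 5 to 8 act around the brachial and thoracic levels of the trunk. Hoxc6, expressed in motor neurons at forelimb level, had 17 peaks in v3, 13 in v2 and 11 in v1, with cover of 60.1%, 49.6% and 29.6%. Hoxc8, which also patterns brachial motor neurons, had 12, 7 and 6 peaks in v3, v2 and v1, with cover of 64.6%, 46.5% and 23.2%. In both genes cover was highest in v3 and lowest in v1. Hoxc5, which with Hoxa5 maintains the phrenic motor neurons, had 5 peaks in v3, 8 in v2 and 9 in v1, with cover of 41.6%, 50% and 39.1%. Its peaks were thus fewest in v3, while its cover was close to that in v1.

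Hoxb6 had 9 peaks in v3, 15 in v2 and 6 in v1, with cover of 55.6%, 50.4% and 22%. Hoxb7 had 8, 10 and 4 peaks in v3, v2 and v1, with cover of 54%, 48.2% and 17.7%. Hoxb8, whose loss in mice leads to excessive grooming and which marks a lineage of microglia, had 8, 7 and 4 peaks, with cover of 52.2%, 47.7% and 22.8%. These neighbours were each covered more in v3 and v2 than in v1. The widest merged region of the Hoxb cluster, 4487 bp at chr11:96299863-96304349, spanned the ends of Hoxb6 and Hoxb5 and was covered over 3806 bp in v3, 4126 bp in v2 and 2260 bp in v1. Hoxa7 had 4 peaks in v3, 9 in v2 and 4 in v1, with cover of 53.6%, 58.2% and 30%, so in v3 a few wide peaks covered about as much as the more numerous peaks of v2.

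Groups 9 to 13 act at the posterior end of the trunk and in the limbs. Hoxd10, which acts in lumbar motor neurons, had 10 peaks in v3, 15 in v2 and 12 in v1, with cover of 72.1%, 60.8% and 54.7%. This was the highest cover of any Hox gene in v3. Hoxa10, known for its role in the uterus and the lumbar spine, had 12, 10 and 13 peaks in v3, v2 and v1, with cover of 55.9%, 49.8% and 49.2%. Hoxc9, which sets the thoracic identity of motor neurons, had 8, 12 and 9 peaks, with cover of 45.3%, 55.4% and 28.9%. Hoxd9 lay in a merged region of 4930 bp at chr2:74695961-74700890, covered over 4452 bp in v3, 3846 bp in v2 and 3253 bp in v1.

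The members of group 13 differed between clusters. Hoxa13, required for digits and the hindgut, had 6 peaks in v3, 8 in v2 and 7 in v1, with cover of 57.1%, 43.4% and 44.8%. Hoxd13, required for digits, had 7, 5 and 9 peaks in v3, v2 and v1, with cover of 48.9%, 40.7% and 45.2%. Both were covered to more than the median protein-coding gene in each library. Hoxc13, which acts in hair and nails, had 4, 8 and 2 peaks in v3, v2 and v1, with cover of 18%, 35.4% and 10.4%. Hoxb13, expressed in the tail end of the embryo, had 4 peaks in v3, 6 in v2 and 0 in v1, with cover of 21.9%, 43.1% and 0%. Hoxc12 had 5, 8 and 1 peaks in v3, v2 and v1, with cover of 29%, 50.1% and 6.07%. Hoxb13, Hoxc12 and Hoxc13 thus had 4 to 5 peaks in v3 and 6 to 8 in v2, against 0 to 2 in v1.

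Because the lists differ in length, versions were compared by the share of each list's peaks. All clusters together took 1.3 times the share in v3 that they took in v2 (interval 1.07 to 1.58) and 1.28 times the share in v1 (1.04 to 1.58). The share in v2 was 0.98 times that in v1 (0.804 to 1.2). With peaks wider than 500 bp alone, the intervals for v3 over v2 (1.22, 0.937 to 1.58) and v3 over v1 (1.18, 0.877 to 1.58) included 1. Without the peaks of minimum width both ratios were thus nearer to 1, on fewer peaks.

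By cluster, the share in v3 was 1.67 times that in v1 for Hoxb (interval 1.06 to 2.66) and 1.63 times for Hoxc (1.05 to 2.55). It was 1.01 times that in v1 for Hoxa (0.677 to 1.5) and 1.04 times for Hoxd (0.668 to 1.61). For v2 over v1 the ratios were 1.25 for Hoxb (0.813 to 1.96), 1.27 for Hoxc (0.84 to 1.95), 0.819 for Hoxa (0.567 to 1.18) and 0.747 for Hoxd (0.491 to 1.14). For v3 over v2 they were 1.33, 1.28, 1.23 and 1.39 for Hoxb, Hoxc, Hoxa and Hoxd, each with an interval that included 1. Only Hoxb and Hoxc in v3 over v1 thus had an interval above 1, and with peaks wider than 500 bp alone these intervals included 1 as well, at 1.29 (0.676 to 2.54) for Hoxb and 1.89 (0.95 to 3.95) for Hoxc. For the part of Hoxb from Hoxb9 to Hoxb1, without Hoxb13 and the sparse interval, the ratio of v3 to v1 was 1.45 (0.876 to 2.42), which also includes 1. That Hoxb and Hoxc differ from Hoxa and Hoxd was not tested.

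**Figure D5:**
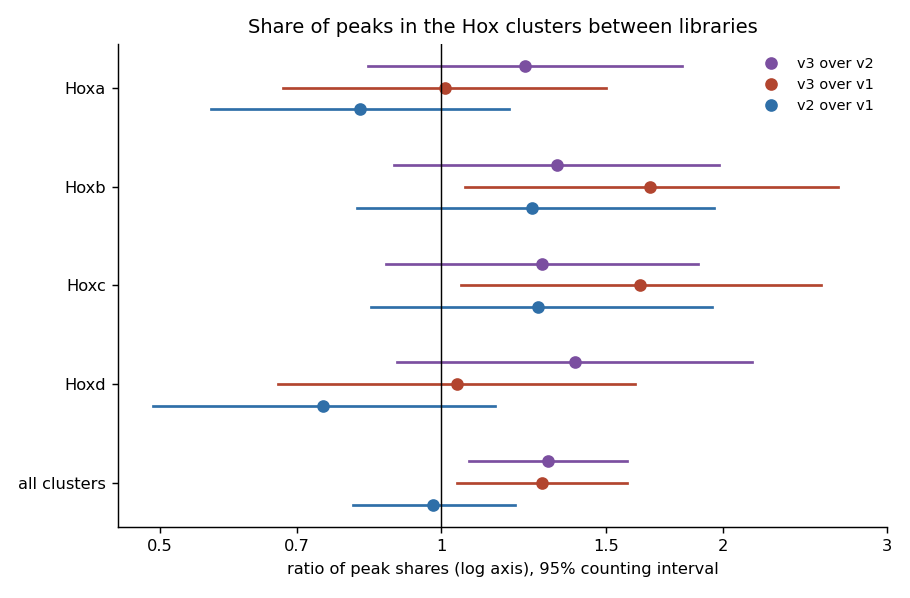
Ratio of the share of peaks in each Hox cluster between versions, on a log axis, with exact 95% counting intervals. The intervals for v3 over v1 lie above 1 for Hoxb and Hoxc and include 1 for Hoxa and Hoxd.

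In covered length, too, Hoxb and Hoxc had higher ratios of v3 over v1 than Hoxa and Hoxd. Peaks of v3 covered 1.74 times the length that peaks of v1 covered in Hoxb, 1.79 times in Hoxc, 1.09 times in Hoxa and 1.09 times in Hoxd. Of 20868 bins of 100 kb that held 30 or more peaks in the 3 libraries together, 6.34% had a ratio of v3 to v1 at least as high as Hoxb, 5.61% as Hoxc, 50.1% as Hoxa and 49.4% as Hoxd. For v2 over v1 the ratios were 1.99 in Hoxb and 2.18 in Hoxc, met by 15.5% and 9.6% of the bins, and 1.15 in Hoxa and 1.1 in Hoxd, met by 90.3% and 93.2%. Against v2, peaks of v3 covered less in every cluster. The length was 0.875 times that in v2 in Hoxb, 0.821 times in Hoxc, 0.95 times in Hoxa and 0.998 times in Hoxd. The whole v3 list also covers less than the v2 list, 19.06% against 26.02% of the chromosomes. As a share of all bases covered by each list, v3 over v2 was above 1 in every cluster. It was 1.19 in Hoxb, 1.12 in Hoxc, 1.3 in Hoxa and 1.36 in Hoxd. Hoxa and Hoxd thus stood in the middle of the genome for v3 over v1 and among its lower ratios for v2 over v1. Of the 38 genes, 30 were covered more in v3 than in v1 (against 64% of all protein-coding genes), 32 more in v2 than in v1 (against 84%) and 19 more in v3 than in v2 (against 18.7%). The count for v2 over v1 was thus at the level of all genes.

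Summed over v3, v2 and v1, 36 of the 38 genes had 10 or more peaks; Hoxb1, with 1, and Hoxd1, with 6, did not. Among the 36, a share ratio of v3 over v1 above 2-fold was found for 7 genes, against 4.74% of the 16774 protein-coding genes that met the same minimum. The 7 were Hoxb7, Hoxb8, Hoxb13, Hoxc8, Hoxc11, Hoxc12 and Hoxc13, and none of the 36 was past 2-fold lower, against 2.18%. For v3 over v2, 5 genes were past 2-fold higher (Hoxb2, Hoxb9, Hoxc6, Hoxc8 and Hoxd13, against 2.37%) and 0 lower (against 2.93%). For v2 over v1, 3 were higher (Hoxb13, Hoxc12 and Hoxc13, against 3.09%) and 2 lower (Hoxb2 and Hoxd13, against 0.841%). The counts above 2-fold rest on few peaks per gene and on windows that share peaks, and they changed with the flank of the window. With gene spans alone, 1 gene was past 2-fold higher in v3 over v1 and 2 in v3 over v2. The minimum of 10 summed peaks was applied again to the peaks in the spans, so genes short of it were no longer counted. The lower counts therefore do not show by themselves that ratios fell. Hoxc8 kept a ratio of 2.43 for v3 over v1 with gene spans alone.

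Hoxc8 had a ratio of 2.85 for v3 over v2 (interval 1.03 to 8.54) and 2.43 for v3 over v1 (0.845 to 7.9). Hoxc12 had a ratio of 6.08 for v3 over v1 (0.68 to 288) and 5.85 for v2 over v1 (0.785 to 260), on the 5, 8 and 1 peaks above. For Hoxb13 no ratio is given, since v1 lists 0 peaks in its window. Hoxb2 had a ratio of 4.16 for v3 over v2 (0.68 to 43.6) and 0.293 for v2 over v1 (0.0279 to 1.79). Of these intervals, only that of Hoxc8 for v3 over v2 excluded 1, and Hoxc8 was named for being among the largest ratios. The Hoxc8 interval included 1 with gene spans alone (2.22, 0.375 to 15.1), with peak midpoints (2.61, 0.925 to 7.95) and with wider peaks (2.24, 0.437 to 14.5). The lowest ratios were 0.594 for Hoxc4 (0.167 to 1.74) and 0.739 for Hoxa7 (0.166 to 2.65) in v3 over v2, and 0.676 for Hoxc5 (0.178 to 2.25) and 0.76 for Hoxc4 (0.196 to 2.64) in v3 over v1. In v2 over v1, Hoxd13 stood at 0.407 (0.107 to 1.35).

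The median log2 share ratio of the 36 genes was 0.30 for v3 over v2, 0.18 for v3 over v1 and -0.12 for v2 over v1, against 0.14, 0.09 and -0.05 over all protein-coding genes with 10 or more peaks. For v3 over v1 the cluster medians were 0.72 in Hoxb, with 9 of 9 genes above 0, and 0.88 in Hoxc, with 7 of 9 above 0. They were 0.02 in Hoxa, with 5 of 10 above 0, and 0.04 in Hoxd, with 5 of 8 above 0. The gene medians thus split the clusters as the cluster counts did, on the same peaks.

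Merging the 3 lists wherever peaks overlapped by at least 1 bp gave 211 regions in the clusters. A peak of every library was present in 102 of them, or 48.3% (Clopper-Pearson interval 41.4 to 55.3), against 39% of all 825954 merged regions. By cluster the share was 69.4% in Hoxd, 51.7% in Hoxa, 45.5% in Hoxb and 35% in Hoxc. Regions in the clusters were wider than regions at large, with a median of 877 bp against 694 bp. The medians were 1310 bp in Hoxd, 780 bp in Hoxa, 956 bp in Hoxb and 830 bp in Hoxc. The part of region width in these shares was not tested. Of the 40 regions with peaks in 2 libraries, v1 was the missing library in 29, or 72.5% (56.1 to 85.4), against 29.9% of all such regions. The library missing was v3 in 15% (against 64.2%) and v2 in 12.5% (against 5.89%). In the genome at large the missing library was thus mostly v3, which has the shortest list, while in the Hox clusters it was mostly v1.

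The regions lacking v1 were in Hoxc (13 of 13 regions with peaks in 2 libraries) and Hoxb (10 of 13), with 4 of 12 in Hoxa and 2 of 2 in Hoxd. In the Hoxb cluster 4 of them stood side by side around Hoxb13. These lay at chr11:96193465-96195119 and chr11:96195559-96197014, over the ends of the gene, and at chr11:96198053-96199038 and chr11:96202570-96204181 beyond it. In the last, v3 covered 1499 bp and v2 covered 1555 bp. In the Hoxc cluster a region at chr15:102937996-102939080 at the end of Hoxc12 was covered over 1000 bp in v3, 1085 bp in v2 and 0 bp in v1. Peaks in v3 and v2 over the same bases were therefore what made v1 differ at these genes.

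Markers of hindbrain and spinal cord neurons, regions that Hox genes pattern, were set beside these differences. Of the 6 markers, 6 had a peak at an end of the gene in v3, 6 in v2 and 5 in v1, where Egr2 had none. Their median window cover was 30% in v3, 33.8% in v2 and 26.6% in v1. Their median log2 share ratio was -0.18 for v3 over v2, -0.22 for v3 over v1 and -0.10 for v2 over v1, with 0 past 2-fold in either direction. The markers were thus not higher in v3 than in v1 by this measure; the part of regional makeup, list length and peak width in the Hox differences was not tested.

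Other genes of the Hox system were examined as lists. The 9 genes of the Pbx, Meis and Pknox families, whose proteins bind DNA together with Hox proteins, all had a peak at an end in every library, with a median cover of 39.6% in v3, 48.8% in v2 and 38.9% in v1. Pbx2 had fewest, with 3 peaks in v3, 6 in v2 and 3 in v1. None was past 2-fold higher in any pair, and Meis1 alone was past 2-fold lower in v2 over v1, with 43, 50 and 83 peaks in v3, v2 and v1. Of the 12 upstream regulators, which include the Cdx factors and the receptors and enzymes of retinoic acid, 12 had a peak at an end in v3, 12 in v2 and 11 in v1, with a median cover of 40.4%, 44.5% and 30.6%. Rarb, a retinoic acid receptor, had most, 94 peaks in v3, 373 in v2 and 201 in v1, and Cdx4 fewest, 1, 1 and 2. Of the 11 regulators with at least 10 peaks, 1 was past 2-fold lower in v3 over v2 (Rarb), against 2.93% of all protein-coding genes. In v3 over v1, 1 was past 2-fold higher (Aldh1a2, with 12 peaks in v3 and 5 in v1), against 4.74%.

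The 16 other protein-coding genes within 200 kb of a cluster had a peak at an end in 15 cases in each library, with a median cover of 31.8% in v3, 34.3% in v2 and 20.5% in v1. Skap1 had most peaks, 58, 65 and 44 in v3, v2 and v1, and Gip fewest, 1, 1 and 1. Evx1 and Evx2, homeobox genes next to the posterior ends of Hoxa and Hoxd, were covered to 62% and 49.6% in v3, 47.1% and 43.5% in v2, and 50% and 43.7% in v1. Of the 13 neighbours with at least 10 peaks, 0 were past 2-fold in any pair. Their median log2 share ratio was 0.46 for v3 over v2, 0.41 for v3 over v1 and -0.08 for v2 over v1. Over all protein-coding genes it was 0.14, 0.09 and -0.05, with the same signs. For the 36 Hox genes it was 0.3, 0.18 and -0.12. For v3 over v2 and v3 over v1 the neighbours thus had higher medians than the Hox genes, so a higher share in v3 was not particular to the Hox genes.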

How the data were processed

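The authors deposited 1 peak list per library, and its other values are the start and end of each peak in mm10, read 0-based as BED and printed 1-based. The submitters' processing notes name ArchR and MACS2; their versions, the aligner and the calling threshold are not given in these sources. Gene spans, promoters and microRNAs came from RefSeq tables of GRCm38.p6. The gene table has no strand or exons, so no gene part is named.

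Python 3.11.15, NumPy 2.4.6, pandas 2.3.3, SciPy 1.17.1 and matplotlib 3.10.9 were used. Peaks were counted where they overlapped by at least 1 bp. Ratios of peak shares have exact conditional binomial intervals, counts exact Poisson intervals and shares exact Clopper-Pearson intervals; a pseudocount of 0.5 peaks entered the 2-fold calls and log2 values. The counting was tested on simulated data. Members and lists were chosen with earlier results of these data known, and the 100-kb bins, flanks, CG counts and microRNAs after seeing the data. Named genes are the 2 members per cluster with most peaks, the member with fewest, and the extreme ratios in each pair; genes past 2-fold and others were added after their values were seen. A further gene that fits the name pattern is not reported here. Alternatives were other flanks, peak midpoints, wider peaks, covered length, an equal pseudocount, a distance of 500 bp to an end, 50% cover of a region and other background genes.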

Additional observations from a re-analysis of the deposited data

How the results depend on the processing

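Of the alternative values for the main results, 246 stayed within 1.5 times the value or within its 95% interval, and 17 moved further. Many of these intervals are wide, so a value that stayed can still have lost an interval above 1. This was so for Hoxb and Hoxc in v3 over v1 with wider peaks. No cluster ratio whose interval excluded 1 turned direction; of those whose interval included 1, Hoxd in v3 over v1 was 0.846 with wider peaks in place of 1.04, and Hoxa in v3 over v1 was 0.99 with peak midpoints in place of 1.01. The density of Hoxb in v2 was 1.23 times that of the list with wider peaks in place of 0.985. The counts past 2-fold moved most. For v3 over v2, 5 genes were higher, against 2 with gene spans alone, 1 with a flank of 20 kb and 0 by covered length. For v3 over v1, 7 were higher, against 1 with gene spans alone, 3 with a flank of 20 kb and 3 with peaks wider than 500 bp. For v2 over v1, 2 were lower, against 1 with gene spans alone, 0 with a flank of 20 kb, 1 with wider peaks and 1 by covered length. With wider peaks, the density of Hoxd in v1 was 2.69 times that of the list in place of 1.85, the share of regions in all libraries was 21.1% in Hoxb and 39.1% over all clusters, and the median width was 982 bp in v2 and 936 bp in v1. Where each library had to cover 50% of a region, the share was 23.6% in Hoxb and 34.6% over all clusters. These alternative shares are given without the share of all regions under the same settings. They therefore do not show whether the clusters still exceed all regions. The cause of the moved values was not tested, except that dropping peaks of the minimum width raises the median width by construction. Read depth is unknown and limits every comparison between versions. No paired analysis was possible because each version has 1 library; for the same reason no replicate could be left out.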
